A study of Mus musculus with 50 samples.

Results

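Terminal end buds (TEBs) and ducts of wild type (WT) mice were compared at 4 weeks of age, in early puberty, with 3 TEB arrays and 3 duct arrays, which are 6 of the 50 arrays of the series. The 6 were selected by their labels (genotype, structure and age), with earlier results of these data known. The 13363 genes past a filter on low intensity were tested. The series profiled both structures in WT and DN-Clim mice aged 4, 6, 8 and 10 weeks, and basal and luminal cells sorted from both genotypes at 10 weeks. It used Affymetrix Mouse Gene 1.0 ST arrays with 1 RNA sample per array. The WT mice carried no transgene and were of the CB6F1 background. The DN-Clim mice, used below as a second set of 4-week arrays, carried a transgene, driven in basal cells by the keratin 14 promoter, whose product blocks the Clim cofactors Ldb1 and Ldb2 in a dominant-negative way. Mice of the same age were littermates. Epithelium was cut with a laser from stained frozen sections so as to keep stroma and fat to a minimum, and each captured structure held several cell types.

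The TEB is the bulb at the tip of each growing pubertal duct. Its outer layer of cap cells faces the fat pad, the body cells inside it divide and die to shape the lumen, and the duct that trails behind consists of luminal cells wrapped in contractile myoepithelial cells. Estrogen and growth hormone drive the bud forward through paracrine growth factors such as amphiregulin, FGFs and IGF1, and the bud disappears when it reaches the edge of the fat pad.

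Values are array intensities, and differences are TEB minus duct on the log2 scale, from limma with the replicate number as a random block, so that a difference of 1 is a doubling. A gene was called at a Benjamini-Hochberg adjusted p under 0.05 over all 13363 genes tested. The median intensity of the 6 arrays lay between 187 and 219, and 48.5 to 52.4% of their probe sets read 200 or more. Luminal keratins were high in every sample: Krt8 read 8195 to 11812 and Krt18 6509 to 8037. The myoepithelial actin Acta2 read 6523 to 10589. Fat genes also read high in the captured tissue. Adipoq, the fat cell hormone, read 2763 to 3807, with TEB and duct values that overlapped. The intensities of 18 adipocyte genes summed to 70962 to 85426 per array, and those of 19 genes shared by luminal cells to 51186 to 60313. TEB and duct arrays of the same number deviated together from their group means (r = 0.65, 0.55 and 0.58 over genes), and the 6 pairings of unlike numbers gave r from -0.46 to -0.15. Deviations from a group mean sum to 0, so positive values for like numbers push those for unlike numbers below 0. That the number marks 1 mouse is not stated, so the p-values measure the spread between these samples.

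Of the 13363 genes, 1965 (14.7%) were called: 1222 (9.14%) were higher and 743 (5.56%) lower in the TEB. With arrays scaled to a common median 786 were higher and 672 lower, with a common mean and variance 849 and 700, and with quantile normalization 978 and 797. Most differences were modest. At least 1.5-fold separated the structures for 309 of the genes higher and 204 of those lower in the TEB, and at least 2-fold for 56 and 46. The 3 TEB values and the 3 duct values did not overlap for 1159 of the genes called higher and 652 of those called lower, against 26.1% of all genes tested. The calls were made on the same values, so this separation adds no support to them. Without the replicate block 655 genes were called (448 higher, 207 lower), and without TEB replicate 3, duct replicate 3 or TEB replicate 1 the counts were 709, 1233 and 1156. Without both arrays of number 3, 635 were called. Of the 159 named genes that were called, 43 were called under all 23 alternative settings and none changed sign.

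Among called genes whose TEB and duct values did not overlap, the largest increase was in Cxcl13, a chemokine that attracts B cells. Cxcl13 read 832, 927 and 992 in the TEBs of replicates 1, 2 and 3 and 285, 155 and 167 in the ducts, a difference of 2.23 (SE 0.18, adjusted p = 0.000141), or 4.70-fold. Sprr1a, a precursor of the cornified envelope, came next with 1591, 2199.9 and 2725 in the TEBs and 522, 705 and 718 in the ducts, and differed by 1.72 (SE 0.13, adjusted p = 0.00012). The glutathione peroxidase Gpx2 was 2.96-fold higher, the DNA sensor Aim2 2.61-fold, the amino acid transporter Slc6a15 2.62-fold and the serpin Serpinb11 2.76-fold. Itih2, a heavy chain of the inter-alpha-trypsin inhibitors that bind hyaluronan, differed by 1.34 (SE 0.095, adjusted p = 0.000119), and Has2, a hyaluronan synthase, by 0.95 (SE 0.13, adjusted p = 0.0017). The other genes among the 15 with the largest increases were Nrg1, Sema3b, Pbk, Trpm3, Bub1, Wnt5a, Mycn and Depdc1a, with differences from 1.17 to 1.31.

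The largest decrease among such genes was in Ltf, which encodes lactoferrin, an iron-binding protein of milk and mucosal secretions. Ltf read 442, 444 and 298 in the TEBs and 2142, 3563 and 1304 in the ducts, a difference of -2.47 (SE 0.22, adjusted p = 0.000198), so that the ducts held 5.54-fold more. Btn1a1, the butyrophilin of the milk fat globule, read 93.4, 143 and 61.8 against 299, 662 and 309.7 and differed by -2.07 (SE 0.24, adjusted p = 0.000603). Tph1, the enzyme that begins serotonin synthesis, read 30, 71.2 and 41.6 in the TEBs and 89.1, 625 and 147 in the ducts. The duct of replicate 2 stood high for Tph1, and the difference of -2.18 (SE 0.43, adjusted p = 0.00945) became -1.55 (adjusted p = 0.00578) without that array. Its call was lost with TEB replicate 1 left out. Among the 15 largest decreases were also Lgr5, Mcpt4, Cck, Oxtr, Inmt, Nrxn3, Rprl1, Mmp3, Cnn1, Wfdc12, Sfrp2 and Plac8, with differences from -1.74 to -1.31.

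**Figure D1:**
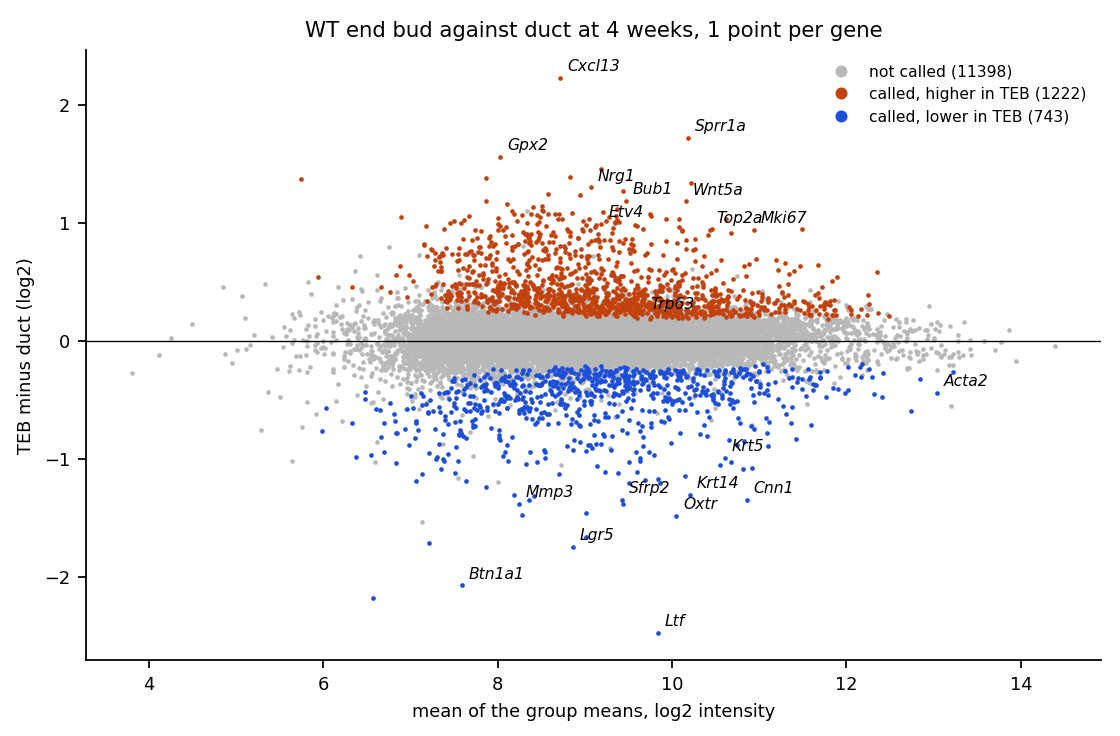
Each point is 1 of the 13363 genes, with the mean of the TEB and duct group means (log2 intensity) on the x axis and TEB minus duct (log2) on the y axis. The 1222 genes called higher in the TEB and the 743 called lower are coloured, and both kinds occur over most of the range of intensity.

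Cell division genes were higher in the TEB. All 34 tested genes of DNA replication and all 41 of mitosis were called higher, beside 9.14% of all genes, and the list medians were 0.65 and 0.93 beside a median of 0.033 over all genes. The replication genes were higher by 0.39 to 1.03 and the mitotic genes by 0.61 to 1.19. All 41 mitotic genes were also called without the replicate block and with each array or each numbered pair left out. With all 20 WT arrays in 1 fit, only 4 of the 41 mitotic genes and 12 of the 34 replication genes were called. Without TEB replicate 1 at 6 weeks, an array that stands apart, that fit called 20 and 28.

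Among mitotic genes Bub1, a kinase of the spindle checkpoint, changed most. Bub1 read 1089, 959 and 1186 in the TEBs and 502, 397 and 523 in the ducts, and differed by 1.19 (SE 0.086, adjusted p = 0.000119). The kinetochore motor Cenpe (1.11), the chromosome-bound kinesin Kif4 (1.11) and the condensin subunit Ncapg (1.09) followed. Mki67, the gene of the Ki-67 proliferation antigen, read 2837, 2476 and 2902 in the TEBs and 1448, 1130.0 and 1746 in the ducts, a difference of 0.94 (SE 0.10, adjusted p = 0.000508). For topoisomerase gene Top2a the readings were 1865, 1841 and 2069 against 1029, 826 and 1174, a difference of 0.94 (SE 0.092, adjusted p = 0.000275). In each of these genes the lowest TEB value stood above the highest duct value.

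Replication genes changed less than mitotic genes in the median. Rrm2, the small subunit of ribonucleotide reductase that makes DNA precursors, read 1647, 1446 and 1552 in the TEBs and 814, 657 and 804 in the ducts and differed by 1.03 (SE 0.074, adjusted p = 0.000119). Gins1 of the replicative helicase (1.03), Uhrf1, which carries DNA methylation through S phase (1.01), and the catalytic subunit of polymerase epsilon, Pole (0.91), were the next. Mcm7 of the helicase core had the smallest difference of the list (0.39, SE 0.065, adjusted p = 0.00436).

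Among 26 cyclins, cyclin-dependent kinases, their regulators and inhibitors, 13 (50%) were called higher and 1 (3.85%) lower (median 0.30). The shares of all genes were 9.14% and 5.56%. Mycn, a growth-promoting transcription factor, read 302, 329 and 436 in the TEBs and 145, 150.2 and 169.5 in the ducts and differed by 1.19 (SE 0.11, adjusted p = 0.000198), while its relative Myc did not pass the test (-0.16, SE 0.061, adjusted p = 0.111). Ccne1, the cyclin of S phase entry, differed by 1.09 (SE 0.092, adjusted p = 0.000162), the late E2F repressor E2f8 by 0.99 (SE 0.094, adjusted p = 0.000264) and the mitotic phosphatase Cdc25c by 0.90 (SE 0.098, adjusted p = 0.000465). Ccnd1, the cyclin that answers growth factors and hormones, was 1.31-fold higher (0.39, SE 0.090, adjusted p = 0.0189), with values that overlapped. The 1 member called lower was the pocket protein gene Rbl2 (-0.29, SE 0.062, adjusted p = 0.0145), a member of complexes that hold cells out of the cycle. Ribosome biogenesis genes leaned the same way with smaller differences: 33 of 34 had higher means, as did 7789 of all 13363 genes. Of the list 6 (17.6%) were called higher, beside 9.14% of all genes, and 1 of the 6 remained without the block. Fewer, 2, were called without duct replicate 3, and 1 was called without TEB replicate 1 or 3. Dkc1 (0.41), Nop58 (0.35), Nolc1 (0.34) and Utp20 (0.29) led them.

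Promoters of these genes were read for motifs known from cell cycle genes, because the members moved together. The windows, from RefSeq on GRCm38.p6, run from 250 bases before to 50 after a gene's start, and both strands were searched. The cell cycle homology region (TTTGAA or TTCGAA) stood in 29 of 36 windows of the mitotic genes (80.6%), in 5 of 33 windows of the replication genes (15.2%) and in 14.1% of the 13470 windows of all genes tested. An E2F motif (TTTCCCGC, TTTGGCGC or TTTCGCGC) stood in 2 of the 36 mitotic windows (5.56%), in 12 of the 33 replication windows (36.4%) and in 3.24% of all windows. CCAAT stood in 77.8% of mitotic, 60.6% of replication and 36.7% of all windows, and 75% of the mitotic windows held both CCAAT and the cell cycle homology region, beside 5.61% of all. For the cyclin and kinase list the E2F share was 30.4% and that of the homology region 30.4%. A match describes letters in the window and is not evidence of binding. The 34 mitotic genes, 28 replication genes and 19 cyclin and kinase genes with a window were counted, and a gene could have more than 1 window.

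The windows of 3 of the most changed mitotic genes, of Uhrf1 and of Mycn are printed as examples of the 2 arrangements. They were chosen by hand and do not stand for their lists. Cenpe, Rrm2 and Gins1, which changed more than some of the genes shown, are not printed. The bases run in the gene's direction of reading, with each motif on either strand in capitals. Bub1 (chr2:127831810-127832109, minus strand), Kif4 (chrX:100625815-100626114, plus strand) and Ncapg (chr5:45669675-45669974, plus strand) hold CCAAT upstream of 1 homology region near the start, and Ncapg also holds an E2F motif. Uhrf1 (chr17:56304063-56304362, plus strand, the one of its 2 windows with an E2F motif) and Mycn (chr12:12941787-12942086, minus strand) hold E2F motifs far upstream of the start, Uhrf1 with CCAAT and Mycn with a homology region. In Mycn 2 E2F motifs, TTTGGCGC and TTTCGCGC on opposite strands, overlap in 1 run of capitals.
Bub1: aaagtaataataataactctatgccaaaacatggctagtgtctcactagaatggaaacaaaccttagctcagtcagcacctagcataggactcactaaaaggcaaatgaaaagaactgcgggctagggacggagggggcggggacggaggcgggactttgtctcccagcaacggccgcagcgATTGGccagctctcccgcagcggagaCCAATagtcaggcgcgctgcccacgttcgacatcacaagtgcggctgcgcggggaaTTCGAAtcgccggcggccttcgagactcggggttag
Kif4: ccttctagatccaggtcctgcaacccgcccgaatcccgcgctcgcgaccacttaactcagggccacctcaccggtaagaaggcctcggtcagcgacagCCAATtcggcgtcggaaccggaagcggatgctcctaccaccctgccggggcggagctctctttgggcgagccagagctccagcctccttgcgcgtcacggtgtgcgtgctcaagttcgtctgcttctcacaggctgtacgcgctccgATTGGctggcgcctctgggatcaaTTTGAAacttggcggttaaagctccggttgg
Ncapg: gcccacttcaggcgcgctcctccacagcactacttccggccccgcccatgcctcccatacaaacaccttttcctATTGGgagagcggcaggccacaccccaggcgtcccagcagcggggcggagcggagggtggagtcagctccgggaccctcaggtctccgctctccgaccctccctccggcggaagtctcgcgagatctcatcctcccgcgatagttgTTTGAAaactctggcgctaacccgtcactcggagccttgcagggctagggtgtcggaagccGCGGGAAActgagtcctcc
Uhrf1: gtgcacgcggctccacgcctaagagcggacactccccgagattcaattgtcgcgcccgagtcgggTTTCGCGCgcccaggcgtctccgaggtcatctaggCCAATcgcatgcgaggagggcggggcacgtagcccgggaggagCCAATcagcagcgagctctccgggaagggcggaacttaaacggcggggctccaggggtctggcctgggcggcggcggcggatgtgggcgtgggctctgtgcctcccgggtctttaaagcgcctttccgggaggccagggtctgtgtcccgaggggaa
Mycn: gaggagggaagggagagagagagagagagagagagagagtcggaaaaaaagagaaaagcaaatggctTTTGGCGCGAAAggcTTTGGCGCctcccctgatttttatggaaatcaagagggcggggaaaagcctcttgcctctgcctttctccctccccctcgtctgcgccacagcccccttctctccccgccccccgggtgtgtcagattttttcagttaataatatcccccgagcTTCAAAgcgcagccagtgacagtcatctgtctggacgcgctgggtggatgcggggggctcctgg

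Genes of the myoepithelial cell were lower in the TEB. Of 27 basal and myoepithelial genes 14 (51.9%) were called lower, beside 5.56% of all genes, and 2 (7.41%) higher, beside 9.14% (list median -0.30). Krt14, the keratin that marks basal cells, read 1054, 643 and 630.0 in the TEBs and 1784, 1996 and 1792 in the ducts, a difference of -1.30 (SE 0.15, adjusted p = 0.000659). Its partner Krt5 read 1265, 1105 and 981 against 2373, 2029.6 and 2226 and differed by -0.99 (SE 0.081, adjusted p = 0.000151). Krt17 (-1.21, SE 0.12, adjusted p = 0.000271) and Krt15 (-1.17, SE 0.16, adjusted p = 0.00149), further basal keratins, behaved alike. For all of them each TEB value lay below each duct value, and TEB replicate 1 was the highest of the TEBs. In bulk samples such as these, fewer cells of a type and less RNA per cell cannot be told apart.

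All 8 genes of the contractile apparatus on the list were called lower, a group put together after the values were seen. Cnn1, the smooth muscle calponin, read 1856, 994 and 849.6 in the TEBs and 3359, 2759.9 and 2782 in the ducts (-1.35, SE 0.18, adjusted p = 0.00142). Tagln (-1.07), Actg2 (-0.87), Myh11 (-0.83), Myl9 (-0.81), Mylk (-0.75) and Tpm2 (-0.66) lay between it and Acta2, the smooth muscle actin (-0.44, SE 0.080, adjusted p = 0.00663). Oxtr, the oxytocin receptor through which milk ejection is triggered, read 933, 548 and 500.3 against 1974, 1479 and 1899.9, the widest difference of the list at -1.48 (SE 0.16, adjusted p = 0.000511).

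Not all basal genes were called. Trp63, the p63 gene on which basal identity depends, read 1026, 789 and 858 in the TEBs and 813, 723 and 748 in the ducts, was higher in the TEB in each of the 3 pairs and did not pass the test (0.22, SE 0.078, adjusted p = 0.0911). The transcription factor genes Snai2 (-0.16, SE 0.095, adjusted p = 0.297) and Sox10 (-0.24, SE 0.081, adjusted p = 0.0763) did not pass it either, nor did the hemidesmosomal integrin genes Itga6 (0.033) and Itgb4 (-0.022). The 2 members called higher were Ngfr, a neurotrophin receptor on basal cells (0.58, SE 0.11, adjusted p = 0.00916), and Id4, a dominant-negative helix-loop-helix factor of basal stem cells (0.49, SE 0.13, adjusted p = 0.0364).

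**Figure D2:**
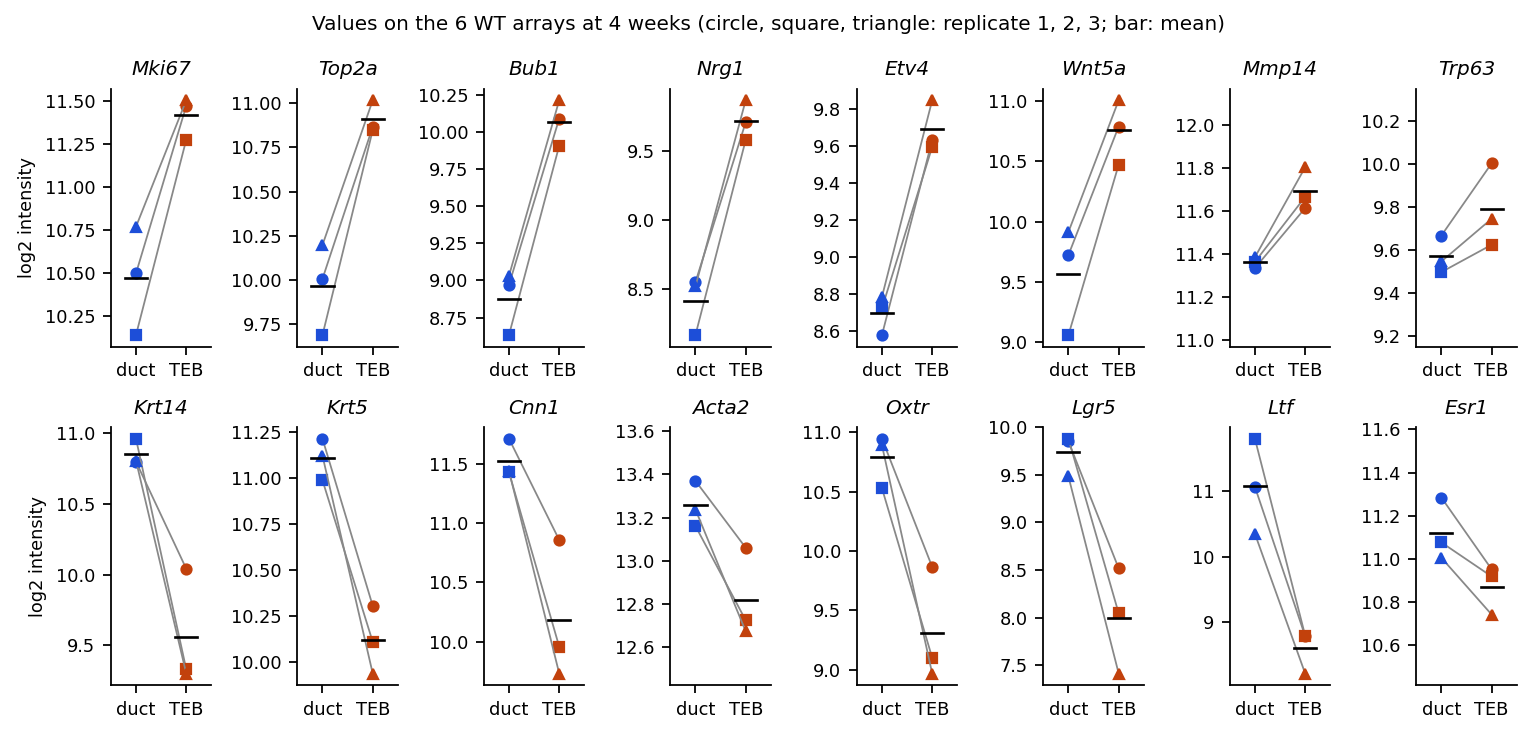
Log2 intensity of 16 genes on the 6 arrays, ducts on the left and TEBs on the right of each panel, with lines joining arrays of the same replicate number, bars at the group means and a separate y axis per gene. The 7 genes from Mki67 to Mmp14 lie higher in every TEB than in any duct, Trp63 overlaps, and the 8 genes of the lower row lie lower in every TEB.

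The sorted WT cells, taken at 10 weeks and so older than the tissue compared here, gave a readout on other arrays, 2 of basal and 2 of luminal cells. Among the 743 genes lower in the TEB, 242 (32.6%) were at least 2-fold higher in basal than luminal cells with arrays that did not overlap, beside 10.5% of all genes, and 159 (21.4%) were at least 2-fold higher in luminal cells, beside 9.58%. Among the 1222 genes higher in the TEB the shares were 13.8% and 7.86%. Some of the genes called higher in the TEB were basal genes in the sorted cells, such as Nrg1 (basal minus luminal 6.13), Wif1 (5.51), Lama1 (5.67), Has2 (5.24) and Serpinb11 (5.60). Basal genes were thus found on both sides of the comparison. Luminal genes were too, with Itih2 (-5.98) and Sprr1a (-5.03) higher and Ltf (-5.00) and Btn1a1 (-4.89) lower in the TEB.

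Most of the genes shared by luminal cells were not called. Of these 19 genes 4 (21.1%) were called lower and 1 (5.26%) higher (median -0.094), beside 5.56% and 9.14% of all genes. Krt8 (0.16, SE 0.086, adjusted p = 0.256) and Krt18 (-0.085, SE 0.064, adjusted p = 0.42) did not pass the test, nor did Gata3, the regulator of luminal fate (-0.094, SE 0.071, adjusted p = 0.425). Those called lower were the mucin Muc1 (-0.62, SE 0.12, adjusted p = 0.00902), the Ets factor Ehf (-0.51, SE 0.10, adjusted p = 0.0109), the tight junction gene Cldn3 (-0.37, SE 0.092, adjusted p = 0.0256) and the tetraspanin Cd9 (-0.36, SE 0.083, adjusted p = 0.0183), and Krt7 was higher (0.33, SE 0.084, adjusted p = 0.0305). Without the replicate block none of these 5 was called, and without TEB replicate 3 1 gene of the list was.

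Of 19 genes of luminal progenitors and alveolar cells 9 (47.4%) were called lower and 1 (5.26%) higher (median -0.28). The shares of all genes were 5.56% and 9.14%, and 4 and 1 of the list were called without the replicate block. Elf5, the transcription factor that commits progenitors to the alveolar fate, read 1283, 1037 and 1008 in the TEBs and 1702, 2001 and 1486 in the ducts and differed by -0.64 (SE 0.10, adjusted p = 0.00391). The progenitor receptor Kit read 1185, 1032 and 1306 against 1580.0, 1394 and 1699 (-0.41, SE 0.075, adjusted p = 0.00672), and the lipopolysaccharide co-receptor Cd14, also a macrophage gene, differed by -0.70 (SE 0.13, adjusted p = 0.00667). Lurap1l differed by -0.69 (SE 0.099, adjusted p = 0.00191). The casein genes Csn2 (0.056) and Csn1s1 (0.17) did not pass the test. The member called higher was the integrin Itgb3 (0.48, SE 0.086, adjusted p = 0.00596).

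Of 18 genes of antimicrobial and mucosal secretion 6 (33.3%) were called lower, beside 5.56% of all genes, and none higher. Lower means were found for 17 of the 18 (median -0.27) and for 5574 of all 13363 genes. Beside Ltf, the whey acidic protein family gene Wfdc12 read 179, 226 and 215 in the TEBs and 378, 923 and 409 in the ducts (-1.35, SE 0.22, adjusted p = 0.00426). The mucin Muc15 differed by -0.48 (SE 0.069, adjusted p = 0.00198).

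Genes of hormone-sensing cells showed small differences, with 3 of 14 called lower and 1, Ccnd1, higher (median -0.057). Their shares were 21.4% and 7.14%, beside 5.56% and 9.14% of all genes. Cited1, a cofactor of the estrogen receptor, read 3569, 2753 and 2653 in the TEBs and 4567, 4054 and 3747 in the ducts and differed by -0.47 (SE 0.085, adjusted p = 0.0065). Esr1, the estrogen receptor, read 1979, 1934 and 1710.2 against 2493, 2158 and 2054 (-0.25, SE 0.070, adjusted p = 0.041), and Wnt4, a paracrine signal of progesterone, differed by -0.35 (SE 0.093, adjusted p = 0.0351). The calls of these 3 were lost without the replicate block. Of the 6 arrays, only duct replicate 2 and TEB replicate 2 could be left out with Esr1 still called, and without TEB replicate 3 its adjusted p was 0.229. Pgr, the progesterone receptor, read 1407, 3139 and 2067 and 1721, 2449 and 2327, with no consistent side among the pairs (-0.034, SE 0.18, adjusted p = 0.918). Areg, the estrogen-induced ErbB ligand, read 3970.0, 6015 and 5414 in the TEBs and 3884, 5366 and 4733 in the ducts and did not pass the test (0.13, SE 0.11, adjusted p = 0.466).

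Of 17 receptors for steroids, growth hormone and growth factors 6 (35.3%) were called lower, beside 5.56% of all genes, and none higher (median -0.19). They included Erbb4 (-0.47, SE 0.098, adjusted p = 0.0123), Fgfr1 (-0.32, SE 0.060, adjusted p = 0.00746) and Erbb2 (-0.29, SE 0.076, adjusted p = 0.0299), and 1 of the 6 was called without the block or without duct replicate 1 or TEB replicate 1, and 0 without TEB replicate 3. Fgfr2, the receptor through which FGFs act on the epithelium, read 4631, 3917 and 4030.4 in the TEBs and 4616, 3189 and 4255 in the ducts, with overlapping values (0.074, SE 0.098, adjusted p = 0.663).

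**Figure D3:**
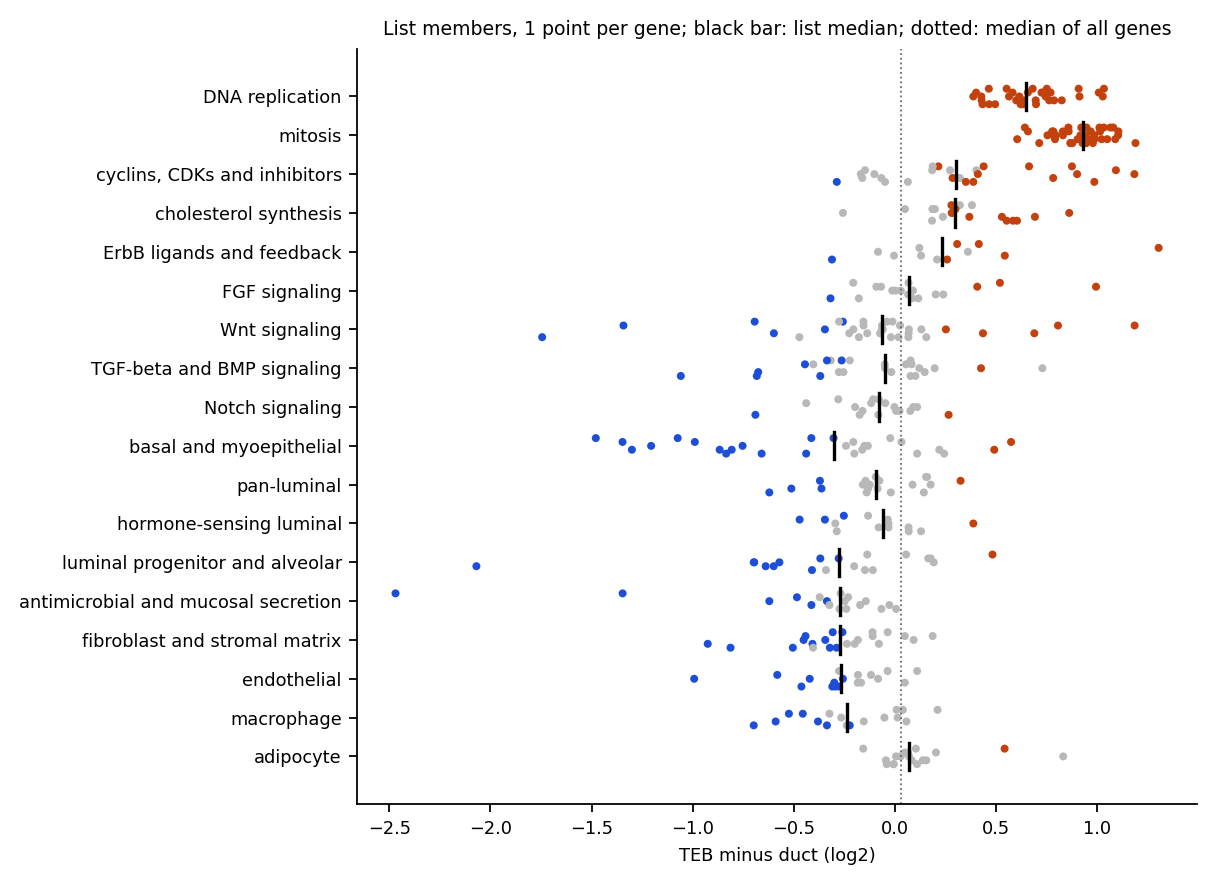
TEB minus duct (log2) for the members of 18 gene lists, 1 point per gene, orange where called higher, blue where called lower and grey where not called, with list medians as black bars and the median of all genes (0.033) dotted. The DNA replication and mitosis lists lie wholly to the right, and the basal, progenitor, antimicrobial, fibroblast, endothelial and macrophage lists have medians between -0.30 and -0.24.

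Several growth factor ligands were higher in the TEB. Of 12 ErbB ligands and feedback genes 5 (41.7%) were called higher and 1 (8.33%) lower, beside 9.14% and 5.56% of all genes. The list median was 0.23. Nrg1, the neuregulin that signals through ErbB3 and ErbB4, read 837, 766 and 934 in the TEBs and 375, 288 and 367 in the ducts, a difference of 1.31 (SE 0.088, adjusted p = 0.000119). Tgfa (0.54, SE 0.073, adjusted p = 0.00143), an EGF receptor ligand, Epgn (0.42, SE 0.12, adjusted p = 0.0459) and Nrg2 (0.31, SE 0.087, adjusted p = 0.0415) were also called, and the feedback inhibitor Errfi1 was lower (-0.31, SE 0.083, adjusted p = 0.0342). Of the 5, 2 were called without the block, and 2 or 3 with any array left out.

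In FGF signaling 3 of 19 genes (15.8%) were called higher and 1 (5.26%), Fgfr1, lower, beside 9.14% and 5.56% of all genes. The list median was 0.068. The 3 were the Ets factors Etv4 and Etv5 and the feedback inhibitor Spry4. Etv4 read 792, 773 and 919.8 in the TEBs and 382, 422 and 441 in the ducts and differed by 1.00 (SE 0.074, adjusted p = 0.00012), Etv5 by 0.52 (SE 0.067, adjusted p = 0.0011) and Spry4 by 0.41 (SE 0.097, adjusted p = 0.0215). The other targets and feedback genes on the list, Etv1, Dusp4, Dusp6, Spry1, Spry2, Spred1 and Spred2, were not called, with differences from 0.0038 to 0.20.

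Wnt genes moved in both directions. Of 33, 5 (15.2%) were called higher and 6 (18.2%) lower (median -0.063), beside 9.14% and 5.56% of all genes. Without the replicate block 1 of the list was called higher and 3 lower. Of those named below, Wnt7b lost its call in 15 of 23 settings and Sfrp4 in 11 of 21. Wnt5a, a mostly noncanonical ligand, read 1765, 1418 and 2051 in the TEBs and 845, 534 and 964 in the ducts and differed by 1.19 (SE 0.14, adjusted p = 0.000754). The ligands Wnt2 (0.69, SE 0.12, adjusted p = 0.00467) and Wnt7b (0.44, SE 0.12, adjusted p = 0.0429) and the secreted inhibitor Wif1 (0.81, SE 0.14, adjusted p = 0.00448) were higher too. Lgr5, a receptor for R-spondins and a stem cell marker in several tissues, read 366, 264 and 171 against 923, 941 and 715, which made it 3.35-fold lower in the TEB (-1.74, SE 0.17, adjusted p = 0.000278). The secreted Frizzled-related Sfrp2 read 555, 401 and 367 and 982, 1307 and 1036 (-1.34, SE 0.14, adjusted p = 0.000412), and Sfrp4 (-0.69) and Dkk3 (-0.60) were lower as well. Axin2, a general target of canonical Wnt signaling, did not pass the test (0.067, SE 0.095, adjusted p = 0.684).

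Of 25 genes of TGF-beta and BMP signaling 7 (28%) were called lower and 1 (4%) higher (median -0.049). The shares of all genes were 5.56% and 9.14%, and without the replicate block 4 and 0 of the list were called. Ltbp2, which resembles the binding proteins of latent TGF-beta, read 492, 369.7 and 327 in the TEBs and 887, 779 and 777 in the ducts and differed by -1.06 (SE 0.10, adjusted p = 0.000278). The ligands Tgfb3 (-0.68, SE 0.078, adjusted p = 0.000627), Bmp4 (-0.68, SE 0.18, adjusted p = 0.0353) and Inhbb, an activin subunit (-0.44, SE 0.057, adjusted p = 0.0011), were lower. Bmp7 was the member called higher (0.43, SE 0.078, adjusted p = 0.00654). Notch signaling had 1 of 18 genes (5.56%) called in each direction, beside 9.14% of all genes called higher and 5.56% lower. They were the ligand Dll1, lower (-0.69, SE 0.14, adjusted p = 0.0119), and the Notch-induced Nrarp, higher (0.27, SE 0.077, adjusted p = 0.0464). Without the block 0 were called, and the call of Nrarp was lost in 15 of 23 settings. None of 9 Hedgehog genes was called in the main limma fit (4 at an unadjusted p under 0.05, and 0 with Cyber-T), and the widest differences were those of the coreceptor Boc (-0.30, SE 0.092, adjusted p = 0.0549) and the effector Gli3 (0.26, SE 0.080, adjusted p = 0.0606). Boc was called in 6 and Gli3 in 2 of 23 other settings.

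Of 32 axon guidance cues and receptors, many of which also position epithelial layers, 6 (18.8%) were called higher and 3 (9.38%) lower (median 0.038). The shares of all genes were 9.14% and 5.56%. Without the replicate block 3 of the list were called higher and 2 lower. Sema3b, a secreted semaphorin, read 959.7, 981 and 1325 in the TEBs and 408, 473 and 455 in the ducts and differed by 1.28 (SE 0.10, adjusted p = 0.000125). The Slit receptor Robo1 (0.50, SE 0.066, adjusted p = 0.00129) and the ephrin receptors Epha2 (0.44, SE 0.075, adjusted p = 0.00471) and Epha7 (0.33, SE 0.080, adjusted p = 0.0246) were higher. Ntn1, the netrin of body cells, read 387, 407 and 429 against 529, 626 and 562 and was lower in the TEB (-0.49, SE 0.072, adjusted p = 0.00234), as were Ntn4 (-0.70) and Slit3 (-0.51).

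Among 34 factors linked with end buds or mammary stem cells 7 (20.6%) were called higher and 6 (17.6%) lower (median -0.038). The shares of all genes were 9.14% and 5.56%. Beside Sprr1a, Has2 and Etv4, the keratin Krt6a, long used as a marker of end bud body cells, was higher: it read 195, 320.4 and 274 in the TEBs and 78, 180.1 and 147 in the ducts (1.02, SE 0.20, adjusted p = 0.00878). Krt23 (0.42) and Krt80 (0.38) of the 16 cytoskeletal keratins were higher as well, so that 4 keratins (25%) were called in each direction. None of those 4 higher keratins was called without the block, and all 4 lower ones were. Igf2 (-0.53, SE 0.12, adjusted p = 0.0182) and the tetraspanin Tspan8 (-0.57, SE 0.13, adjusted p = 0.016) were among the stem cell factors called lower.

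Of 11 Clims and partners 4 (36.4%) were called lower, beside 5.56% of all genes, and none higher (median -0.13). Ldb2 (Clim1) read 304, 281 and 269 in the TEBs and 404, 558 and 396 in the ducts and differed by -0.65 (SE 0.11, adjusted p = 0.00481). Ldb1 (Clim2) read 3056, 2963 and 2974 against 3783, 3883 and 3441, a small difference of -0.30 (SE 0.059, adjusted p = 0.00878) that missed the threshold without TEB replicate 3 (adjusted p = 0.0552). Lmo2 (-0.37) and Ssbp2 (-0.28) were lower, and Lmo4 did not pass the test (0.14, SE 0.069, adjusted p = 0.202). Only 1 of the 4 was called without the block.

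Matrix genes divided. Among 30 metalloproteinases, other proteases and inhibitors 5 (16.7%) were called higher and 8 (26.7%) lower (median -0.083). The shares of all genes were 9.14% and 5.56%, and without the replicate block 3 and 5 of the list were called. Timp1, an inhibitor of metalloproteinases, read 1069, 1213 and 1507 in the TEBs and 510.4, 631 and 664 in the ducts and differed by 1.06 (SE 0.097, adjusted p = 0.000221). Mmp14, the membrane-bound collagenase, read 3132, 3247 and 3572 against 2582, 2634 and 2673, a small and even difference of 0.33 (SE 0.059, adjusted p = 0.00553). The matrix metalloproteinase Mmp3 read 239, 160.2 and 174 in the TEBs and 439.8, 651 and 408 in the ducts (-1.38, SE 0.18, adjusted p = 0.0011), Mmp2 differed by -0.83 (SE 0.13, adjusted p = 0.00353) and Mmp11 by -0.61 (SE 0.099, adjusted p = 0.00397), all 3 lower. The secreted ADAMTS proteases Adamts18 (0.55, SE 0.10, adjusted p = 0.00741) and Adamts4 (0.37, SE 0.090, adjusted p = 0.0227) were higher.

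Of 25 basement membrane genes 6 (24%) were called higher and 5 (20%) lower (median -0.016), beside 9.14% and 5.56% of all genes. Without the replicate block 2 and 1 of the list were called. Lama1, the laminin chain of early basement membranes, read 1103, 851 and 1047 in the TEBs and 651, 474 and 583 in the ducts and differed by 0.82 (SE 0.092, adjusted p = 0.000572). Npnt (0.53, SE 0.068, adjusted p = 0.0011), a ligand of integrin alpha8 beta1, and the Fraser complex genes Fras1 (0.40) and Frem2 (0.36) were higher. Lama2 (-0.35, SE 0.073, adjusted p = 0.0123), Lamb3 (-0.41, SE 0.068, adjusted p = 0.00424), Nid2 (-0.30) and Smoc2 (-0.79) were lower. Among 16 integrins the collagen receptor chain Itga2 (0.39, SE 0.067, adjusted p = 0.00513) and Itgb3 were higher, and Itga8 (-0.35) and Itgbl1 (-0.59) lower. These were 12.5% in each direction, beside 9.14% of all genes called higher and 5.56% lower. Without the block 2 integrins were called higher and 0 lower. The call of Itgbl1 was lost in 16 of 21 settings and that of Itga8 in 13 of 23.

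Of 19 genes of cholesterol synthesis 11 (57.9%) were called higher, beside 9.14% of all genes, and none lower. Higher means were found for 18 of the 19 (median 0.30) and for 7789 of all 13363 genes. Idi1, which makes the isoprenoid unit DMAPP, read 878, 984 and 1169.6 in the TEBs and 497, 499 and 677 in the ducts and differed by 0.86 (SE 0.099, adjusted p = 0.000605). Hsd17b7 (0.69), Hmgcs1, the synthase at the head of the pathway (0.60), and Msmo1 (0.59) followed. Without the block 2 of the 11 were called, and with TEB replicate 3 left out 3 were. Of 17 genes of glycolysis and hypoxia response Pgk1 (0.34) and Egln3 (0.28) were higher and Ndrg1 lower (-0.67), and none of the 3 was called without the block. Their shares were 11.8% and 5.88%, beside 9.14% and 5.56% of all genes.

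Of 20 genes of cell death in lumen formation 2 (10%) were called lower, beside 5.56% of all genes, and none higher. Without the block 0 were called. Bmf, a death-promoting BH3-only gene linked with lumen clearing, read 405, 378 and 286 in the TEBs and 553, 560.0 and 426 in the ducts (-0.53, SE 0.10, adjusted p = 0.00904), and the inhibitor of apoptosis Birc2 differed by -0.27 (SE 0.068, adjusted p = 0.0263). Among the immediate-early genes and heat shock genes, which respond to handling, 2 of 24 were called higher (Atf3 0.37, Hsp90aa1 0.30) and 3 lower (Hspb1 -0.37, Zfp36 -0.35, Btg2 -0.31). Their shares were 8.33% and 12.5%, beside 9.14% and 5.56% of all genes. None of 16 interferon response genes was called in the main limma fit (2 at an unadjusted p under 0.05, and 0 with Cyber-T), with Ifit3 at -0.37 (SE 0.15, adjusted p = 0.14) and Usp18 at 0.30 (SE 0.25, adjusted p = 0.46). Ifit3 was called in 1 of 23 other settings and Usp18 in 1 of 22.

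Many markers of stromal cells were called lower in the TEB, and fat markers overlapped between the structures. Of 22 fibroblast and stromal matrix genes 11 (50%) were called lower, beside 5.56% of all genes, and none higher (median -0.27). Their summed intensity was 56854 to 62133 in the TEBs and 66628 to 73987 in the ducts. Col1a1, a chain of type I collagen, read 3236, 3405 and 3348 in the TEBs and 3585, 4849.7 and 4948 in the ducts (-0.41, SE 0.093, adjusted p = 0.0183). Ogn (-0.93), Col12a1 (-0.81), Mfap5 (-0.50) and Col1a2 (-0.45) were lower too. Of the 11, 3 were called without the block, 2 without duct replicate 3 and 3 without TEB replicate 3.

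Of 18 endothelial genes 9 (50%) were called lower, beside 5.56% of all genes, and none higher (median -0.27). Their sums were 8631 to 9193 in the TEBs and 9734 to 11592 in the ducts. Pecam1, the endothelial junction protein CD31, read 532, 482 and 475 against 691, 752 and 612 (-0.46, SE 0.077, adjusted p = 0.00452), and Vwf (-0.99), Emcn (-0.58) and Egfl7 (-0.42) were lower as well. Without TEB replicate 3 the endothelial count was 3 and the macrophage count below was 2. Of 17 macrophage genes 7 (41.2%) were called lower, beside 5.56% of all genes, and none higher (median -0.24). Their sums were 8045 to 8624 in the TEBs and 9081 to 11548 in the ducts. Csf1r, the receptor of the macrophage growth factor, read 579, 499 and 479 and 669, 874 and 704 (-0.52, SE 0.10, adjusted p = 0.00924). Cd163 (-0.59) and C1qc (-0.45) were lower. Of the defining markers, the lowest intensities on any of the 6 arrays were 1946 for the fibroblast gene Pdgfra, 389 for the endothelial gene Kdr and 281 for the macrophage gene Adgre1. The part of these 3 cell types in the differences of genes that stromal and basal cells share, such as Mmp2 and Sfrp2, was not tested.

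Of 18 adipocyte genes 1 (5.56%, beside 9.14% of all genes) was called higher, Cidea (0.54, SE 0.14, adjusted p = 0.027), and none lower. The list sums overlapped, with 71959 to 85426 in the TEBs and 70962 to 84723 in the ducts. Fabp4, the fatty acid carrier of fat cells, read 6249, 7080.2 and 6744 in the TEBs and 6196, 5962 and 6788 in the ducts (0.084, SE 0.066, adjusted p = 0.447). Of 8 mast cell and eosinophil genes 3 (37.5%) were called lower, beside 5.56% of all genes. The mast cell proteases Mcpt4 (58.4, 70.8 and 132 against 151, 461 and 277) and Cpa3 (161, 143 and 274 against 216, 889 and 498) were highest in the duct of replicate 2. Mcpt4 differed by -1.71 (SE 0.31, adjusted p = 0.00657) and by -1.26 without that array. Cpa3 differed by -1.31 (SE 0.37, adjusted p = 0.0423) and by -0.72 without it (adjusted p = 0.0653), and of the 6 arrays only duct replicate 1 could be left out with Cpa3 still called. The receptor gene Kit was the other member called lower. The chemokine Ccl11, an attractant of eosinophils that end buds require, was higher in the TEB: it read 1289, 1061 and 1506 against 877, 884 and 952 (0.49, SE 0.092, adjusted p = 0.00741). None of 13 lymphocyte, 12 skeletal muscle and 1 red blood cell genes was called in the main limma fit (2, 2 and 0 at an unadjusted p under 0.05, and 0 with Cyber-T). Of the lymphocyte genes 9 and of the muscle genes 8 were under 200 on all 6 arrays. The widest differences among them were those of the B cell receptor chain Cd79b (0.39), Cd52 (0.36), and the myosin genes Myl1 (0.46) and Myh4 (0.37), and the red cell gene Alas2 stood at -0.012. Under other settings Cd79b was called in 3 of 23, Myl1 in 3 of 22 and Myh4 in 1 of 21. Of 7 nerve and Schwann cell genes Ngfr was higher and Cdh19 lower (-0.57, SE 0.15, adjusted p = 0.0334). These were 14.3% in each direction, beside 9.14% of all genes called higher and 5.56% lower.

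**Figure D4:**
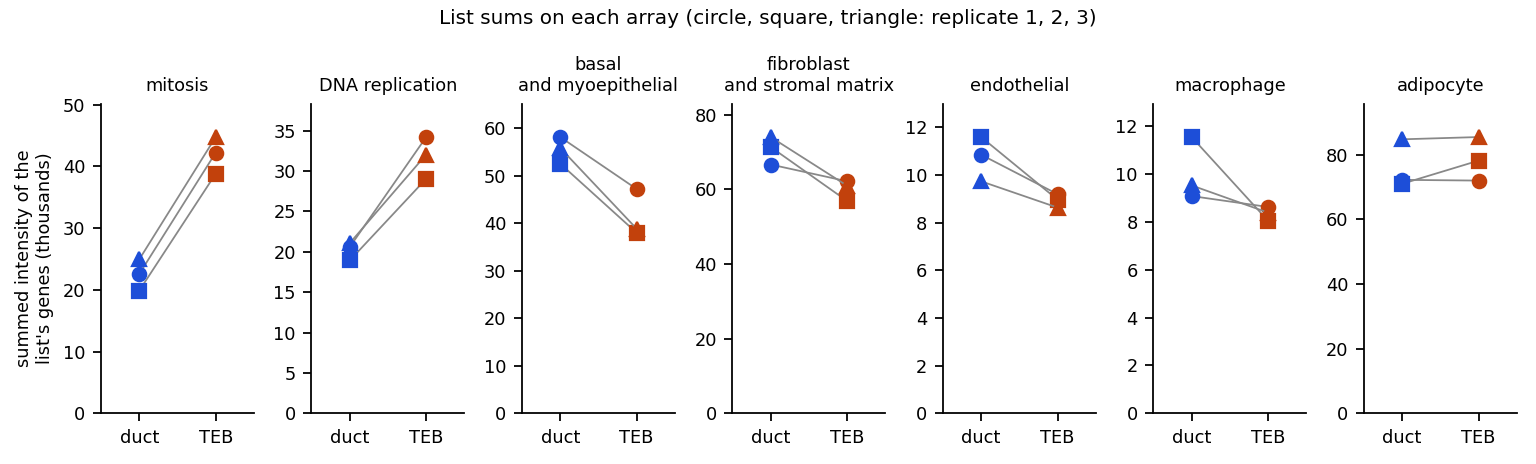
Summed intensity (axes start at 0, units as marked) of the genes of 7 lists on each array, ducts on the left and TEBs on the right, with lines joining arrays of the same replicate number. The TEB sums of mitosis and DNA replication lie above all duct sums, those of the basal, fibroblast, endothelial and macrophage lists below, and the adipocyte sums overlap.

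The same comparison in DN-Clim mice at 4 weeks was made on 3 TEB and 3 duct arrays that share no sample with the WT. The signs of its differences gave a separate reading of the WT calls, from littermates. The DN-Clim calls did not, because their fit pooled the spread of the WT and DN-Clim arrays. The count of 2684 genes called in DN-Clim mice became 3472 without WT duct replicate 2 and 2315 without WT TEB replicate 3. Of the 1222 genes higher in the WT TEB 1155 (94.5%) had the same sign, where 39.7% of all genes did, and 617 (50.5%) were called in that direction, beside 6.76% of all genes. Of the 743 genes lower in the WT TEB 729 (98.1%) had the same sign, where 60.3% of all genes did, and 548 (73.8%) were called in that direction, beside 13.3%. No gene of the first set and 1 of the second was called the other way. Across genes, which are not independent replicates, the 2 sets of differences correlated with r = 0.741 over 13363 genes.

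In DN-Clim mice 33.6% of the 2684 called genes were higher in the TEB, a share that rose to 49.3% when arrays were scaled to a common mean and variance and to 50.5% with quantile normalization.

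All 41 mitotic genes and 33 of the 34 replication genes were called higher in the DN-Clim TEB too, with list medians of 0.70 and 0.58. Of the 27 basal genes 18 were called lower and 2 higher in it (median -0.43), beside 13.3% and 6.76% of all genes. Ltf differed by -1.81 (adjusted p = 0.000916), Lgr5 by -1.45 (adjusted p = 0.000251), Oxtr by -1.51 (adjusted p = 0.000251) and Nrg1 by 0.96 (adjusted p = 0.000354). Of 19 cholesterol synthesis genes 16 were called higher. Some WT differences were not called in DN-Clim mice, for example those of Tph1 (-0.51, adjusted p = 0.508), Plac8 (-0.42, adjusted p = 0.42) and Rprl1 (0.27, adjusted p = 0.364). The difference between the genotypes was itself tested and called for 0 of 13363 genes (0%) by limma, with or without the replicate block, although 1797 genes had an unadjusted p under 0.05.

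**Figure D5:**
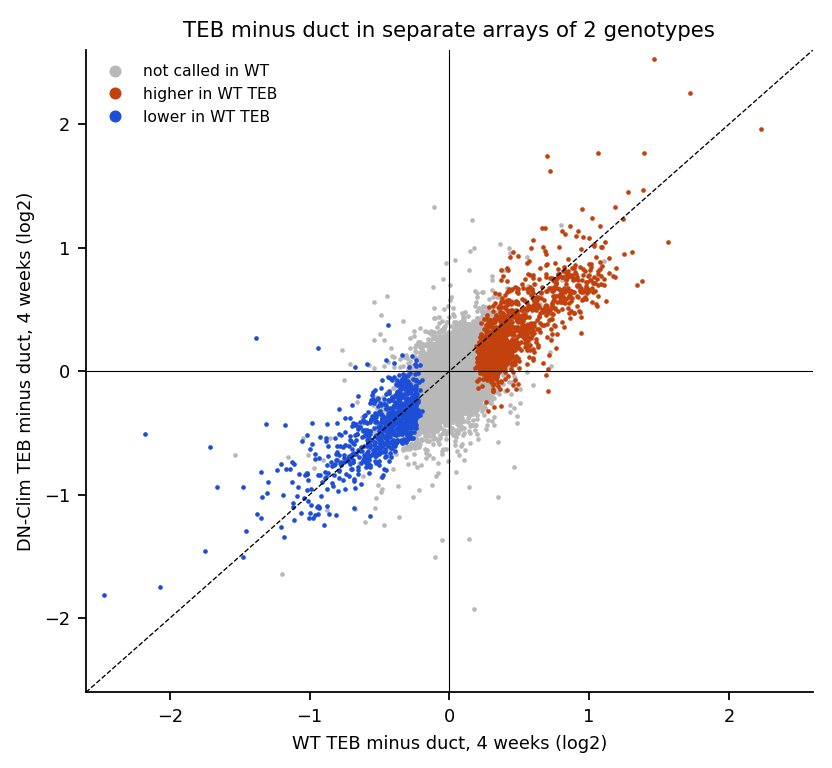
TEB minus duct (log2) at 4 weeks in WT (x axis) and DN-Clim mice (y axis), 1 point per gene, coloured by the call in WT, with the dashed line of equal differences. Of the coloured genes, 1155 of 1222 called higher and 729 of 743 called lower in WT lie on the same side of 0 in DN-Clim mice.

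Genes higher in the WT TEB at 4 weeks mostly had the other sign at 6 weeks. TEB replicate 1 at 6 weeks stands apart, with its intensities at a median of 156 (the 4-week arrays lie between 187 and 219), and was left out of the values that follow. Of the 1222 genes higher in the TEB at 4 weeks 306 (25.0%) had the same sign at 6 weeks, where 51.6% of all genes did, and of the 743 lower 288 (38.8%) had it, where 48.4% did. The mitotic list had a median of -0.68 and the replication list of -0.39. Of their members 0 and 5 were called lower in the TEB, beside 67 of all 13363 genes (1.36% were called in either direction). With that array the medians were -0.74 and -0.59, and 13.5% and 61.4% of the genes higher and lower at 4 weeks had the same sign, where 30.1% and 69.9% of all genes did. The adipocyte list was higher in the TEB at 6 weeks without that array (median 0.58, 7 of 18 called higher, beside 115 of all 13363 genes). Without scaling, the median of all genes differed by 0.13 between the ages, and by 0.012 after quantile normalization. The change between the ages was called for 290 genes (2.17%) with all arrays and for 1446 (10.8%) without TEB replicate 1. With all arrays that count depended on single samples: it was 1 without TEB replicate 3 at 4 weeks or without duct replicate 2 at 6 weeks, and 901 and 706 without duct replicates 1 and 3 at 6 weeks. Among the 41 mitotic genes 15 were called with all arrays and 37 without it. With 2 TEB and 2 duct arrays each, the medians of the mitotic list were -0.016 at 8 weeks and 0.20 at 10 weeks, given without a test. Each age came from its own litters, and the effects of age and of litter cannot be told apart.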

How the data were processed

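Laser-captured epithelium (42 arrays) and sorted cells (8 arrays) were profiled on 1-colour arrays. The deposited values are linear intensity values per probe set, which the authors computed with PLIER. The sources used here do not give its version, background correction or normalization. Of 35557 probe sets, 21789 had 1 gene symbol in the platform annotation, 1621 several and 12147 none. Probe sets of 200 or more on at least 1 laser capture array were kept (22693), intensities under 1 were set to 1, and the probe set with the highest mean represented each gene, which left 13363 genes. Of the called genes 95 had further probe sets, and for 5 (Gatad1, Nbn, Ppp2r5c, Socs3 and Tenm4) one of these had the other sign.

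Log2 intensity was tested with limma 3.58.1 in R 4.3.3 (lmFit, and eBayes with a trend) on the 6 arrays, with Benjamini-Hochberg adjustment over all genes. The replicate number was a random block (duplicateCorrelation, consensus correlation 0.42), since same-numbered TEB and duct arrays correlated in their deviations (r from 0.55 to 0.65). That the numbers pair the samples was read from the labels' shared numbers and this check. DN-Clim mice and the 2 ages were tested in fits of 12 arrays each. The number of arrays limits the precision.

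The comparison, the 37 gene lists (820 genes, 698 of them tested) and the tests were chosen with earlier results of these data known. Lists are described by counts and medians beside the same over all genes. Named were the 15 largest changes in each direction among called genes with TEB and duct values apart, up to 4 called genes per list and direction (or 1 or 2 with the largest difference where none was called), 25 fixed genes and, for the ages, 5 genes per direction. Mcm7, Myc, Snai2, Sox10, Itga6, Itgb4, Csn2, Csn1s1, Axin2, Pdgfra, Kdr, Adgre1, the FGF targets that were not called and the contractile genes other than Cnn1 and Acta2 were added after their values were seen. Promoters were those of RefSeq on GRCm38.p6. Of the promoter windows of Uhrf1, the one with an E2F motif was printed.

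The alternatives were other filters on low values, an offset of 16 before the logarithm, 3 scalings, all probe sets, no block or a fixed block, wider sets of arrays, no trend, Cyber-T (window 101, confidence 10), and each array or numbered pair left out. The fits without a numbered pair kept the correlation of the 6 arrays. A fit without TEB replicate 1 at 6 weeks, for that age, was chosen after seeing the data. limma was tested on simulated data with known changes.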

Additional observations from a re-analysis of the deposited data

Results flagged for a closer look

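The TEB minus duct difference itself differed between 4 and 6 weeks in WT mice for 290 genes by the limma test of that difference (1446 without TEB replicate 1 at 6 weeks, and all 290 were among them). The 290 were 2.17% of all genes. Of the genes named here 43 were among the 290 (30 with a higher and 13 with a lower value at 4 weeks), and all 43 were also called without that array. Most named genes were picked by their 4-week difference, which is part of the value tested, and some by the age difference itself. The fit without that array used the same 4-week values. The 43, their split and that repeat are thus no separate support. The values are the 4-week minus the 6-week difference (log2), with all arrays. Chemokine, end bud and matrix genes with a higher difference at 4 weeks were Cxcl13 at 3.89, Sprr1a at 2.70, Has2 at 2.22, Timp1 at 1.70, Itih2 at 1.46, Lama1 at 1.09, Adamts18 at 0.98, Itga2 at 0.83, Itgb3 at 0.76 and Mmp14 at 0.49. Cell division genes were Uhrf1 at 2.51, Pbk at 2.50, Bub1 at 2.47, Cdc25c at 2.34, Top2a at 1.80, Mycn at 1.70, Pole at 1.69, E2f8 at 1.61 and Ccnd1 at 0.70. Signaling genes were Nrg1 at 2.11, Wnt5a at 1.67, Sema3b at 1.63, Etv4 at 1.40, Id4 at 1.21 and Tgfa at 0.89. The rest were Trpm3 at 1.80, Gpx2 at 1.64, Cd79b at 1.11, Egln3 at 0.53 and Hsp90aa1 at 0.49.

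Basal genes with a lower difference at 4 weeks than at 6 weeks were Oxtr at -1.48, Cnn1 at -1.28, Krt14 at -1.17 and Krt17 at -1.03. Matrix and vessel genes were Mmp2 at -1.08, Emcn at -0.89, Mfap5 at -0.74, Col12a1 at -0.72, Nid2 at -0.66 and Lama2 at -0.62. The remaining genes were Zim1 at -1.37, Ifi205 at -1.33 and Nos1 at -1.30.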

How the results depend on the processing

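The count of 1965 genes became 655 without the replicate block, 444 with all 20 WT arrays in the fit and 1127 with Cyber-T, and it ranged from 709 (without TEB replicate 3) to 2060 with 1 array left out, with 1233 without duct replicate 3 and 1156 without TEB replicate 1, and from 635 to 1456 with a numbered pair left out. All 655 genes called without the block were among the 1965, and with a fixed replicate block 2063 were called. The count over the gene lists (269) became 146 without the block and 88 with the 20 WT arrays, and ranged from 154 (without TEB replicate 3) to 261 with 1 array and from 149 to 226 with a pair left out. No called named gene changed sign. The calls of 78 of the 159 were lost without the block, of 88 with the 20 WT arrays, of 33 with Cyber-T, of 69 without TEB replicate 3, of 42 without duct replicate 1, of 41 without TEB replicate 1 and of 32 without duct replicate 3. Of the 19 named genes that were not called 8 were called under some setting, and 4 changed sign with arrays left out. Alas2 turned to 0.065 and 0.022 (without duct replicates 2 and 3), 0.16 (without TEB replicate 1), 0.0083 and 0.032 (without pairs 1 and 2), and was -0.077 without pair 3. Pgr turned to 0.030 (without duct replicate 3), 0.20 (without TEB replicate 1), 0.094 and 0.034 (without pairs 1 and 3), and was -0.23 without pair 2. Fgfr2 turned to -0.057 and -0.037 (without duct replicate 2 and pair 2), with a highest value of 0.15 without pair 3, and Adipoq to 0.0017 and 0.011 (without duct replicate 3 and TEB replicate 2). In DN-Clim mice the count of 2684 became 701 without the block, and ranged from 1430 to 3472, with 1430 without DN-Clim duct replicate 2, 1740 and 1516 without DN-Clim TEB replicates 2 and 3. The difference between genotypes stayed at 0 genes under every alternative run, with 505 to 2532 genes at an unadjusted p under 0.05. The difference between ages (290) became 502 with a common mean and variance, 952 with quantile normalization, 55 with no filter on low values and 20 without the block, and ranged from 1 to 1446 with 1 array left out. At 4 weeks those counts were 31, 12 and 29 without duct replicates 1, 2 and 3 and 62, 36 and 1 without TEB replicates 1, 2 and 3. At 6 weeks they were 901, 1 and 706 without duct replicates 1, 2 and 3, and 1446 and 151 without TEB replicates 1 and 3. The causes were not tested.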
